A study of Mus musculus with 2 samples.

Results

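The genes described here are a set of antiviral effectors switched on by interferon: Ifit1, Ifit2, Ifit3, Ifit3b, Rsad2, Isg15, Isg20, Mx1, Ifi44 and Ifi27l2a. They were listed by symbol with earlier results of these libraries known, so the list is not independent of the ratios below, and 9 of the 10 were analysed among the 31253 genes of the files. Mx1 was not analysed here. The cells came from melanomas grown in female mice of a line that the study backcrossed to C57BL/6J. The mice were either Irg1+/+ or deficient for Irg1 in the whole body (Irg1-/-). Irg1, also named Acod1, encodes the enzyme that makes itaconate. Each mouse received 200000 cells of B16-F10, a mouse melanoma line, under the skin of the flank and tumor pieces of 100 mm3 from 3 mice of a genotype were pooled on day 10. From each pool 6000 CD45+ cells were sorted and made into 1 single-cell library on the BD Rhapsody system, so every comparison sets 1 library against another. No test across animals can be made with this design, the interval printed beside a value covers counting error only, and the genotype, the pool of mice and the library cannot be told apart.

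Type I interferons bind a receptor built from Ifnar1 and Ifnar2, whose kinases Jak1 and Tyk2 activate transcription factors. With Irf9, Stat2 is part of the complex that binds interferon-stimulated response elements in the promoters of antiviral genes. In tumors the products of such genes are a common readout of interferon signaling in monocytes, macrophages and dendritic cells. The Ifit proteins bind foreign RNA and hinder its translation, Rsad2 (viperin) makes a nucleotide that ends viral RNA chains, Isg15 is a ubiquitin-like modifier, and Isg20 is an exonuclease. Ifi27l2a encodes a small interferon-induced membrane protein, and Ifi44 an interferon-induced protein of the cytoplasm.

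The promoters of the members that hold the core of this response element are shown first, because they are the stretch through which the pathway is known to reach these genes. The letters searched were GAAA, any 2 bases and GAAA again, on both strands of the 200 bases before each gene's start in RefSeq (build GRCm38.p6). Of 8 members with a promoter in that collection, 5 held a match in at least 1 of their promoters (62.5%), against 716 of 27025 genes in all (2.65%). The sequences run 5′ to 3′ on the strand of the gene, with the matches in capitals, and end at the base before the RefSeq start except for Ifit1.
Isg15: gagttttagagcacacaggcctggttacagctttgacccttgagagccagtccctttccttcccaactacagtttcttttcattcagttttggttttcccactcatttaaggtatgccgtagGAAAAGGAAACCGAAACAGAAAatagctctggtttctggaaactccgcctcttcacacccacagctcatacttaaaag
Rsad2: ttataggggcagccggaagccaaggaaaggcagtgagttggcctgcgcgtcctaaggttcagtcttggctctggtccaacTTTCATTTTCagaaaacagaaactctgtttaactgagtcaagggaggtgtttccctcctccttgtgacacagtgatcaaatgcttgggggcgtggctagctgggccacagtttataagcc
Ifit3: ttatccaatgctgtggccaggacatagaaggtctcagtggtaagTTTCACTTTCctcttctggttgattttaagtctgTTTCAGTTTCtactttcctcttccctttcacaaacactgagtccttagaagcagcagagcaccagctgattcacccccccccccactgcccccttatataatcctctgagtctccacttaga
Ifit3b: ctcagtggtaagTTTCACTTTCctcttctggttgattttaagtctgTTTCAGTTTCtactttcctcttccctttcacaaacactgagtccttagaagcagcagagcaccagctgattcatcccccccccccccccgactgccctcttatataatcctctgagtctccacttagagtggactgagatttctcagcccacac
Ifit1: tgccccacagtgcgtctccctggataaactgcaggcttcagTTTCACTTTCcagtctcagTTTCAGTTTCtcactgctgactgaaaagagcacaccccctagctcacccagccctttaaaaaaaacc

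The Isg15 stretch lies at chr4:156200819-156201018 on the minus strand and holds 3 overlapping matches, which begin 78, 72 and 66 bases before the start. The Rsad2 stretch lies at chr12:26456453-26456652 on the minus strand, with 1 match that begins 120 bases before the start. The other three lie on the plus strand of chromosome 19, at chr19:34583329-34583528 for Ifit3, chr19:34607757-34607956 for Ifit3b and chr19:34640744-34640870 for Ifit1, each with 2 matches. The Ifit1 stretch is cut to 127 bases, where no annotated exon overlaps it, so it ends short of the RefSeq start, and its matches begin 104 and 85 bases before that start. Ifit3 and Ifit3b are near-copies: 168 aligned bases of their promoters are 98.8% identical and 1697 aligned bases of their transcripts 98.0% identical, so the split of UMIs between them is uncertain. The windows of Ifit2, Ifi44 and Isg20 do not hold these letters, and a match is a description of the sequence, not evidence that a factor binds there.

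In the GENCODE annotation of GRCm38 the 4 Ifit genes form 1 cluster on the plus strand of chromosome 19: Ifit2 at chr19:34550694-34576419, Ifit3 at chr19:34583531-34588731, Ifit3b at chr19:34607970-34613401 and Ifit1 at chr19:34640871-34650009. The minus-strand genes Ifit1bl1 and Ifit1bl2 lie among them. Rsad2 spans chr12:26442746-26456452 on the minus strand, 12751 bases from Cmpk2 on the opposite strand, and Ifi27l2a spans chr12:103442167-103443680 on the minus strand. Isg15 lies at chr4:156199424-156200818 and Ifi44 at chr3:151730922-151749960, both on the minus strand, and Isg20 lies at chr7:78913424-78920396 on the plus strand.

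The Irg1+/+ library held 6408 cell barcodes with 43617546 UMIs and the library labelled Irg1-/- held 5896 barcodes with 36432067 UMIs, where a UMI marks 1 captured RNA molecule. Median depth was 4560 and 4635 UMIs per cell. Cells with mitochondrial genes at 10% of UMIs or more were left out, which kept 6284 and 5794 cells. Ptprc, which encodes CD45, had a UMI in 88.0% and 91.5% of them. Cells were assigned to a type by marker genes, here called gates, when one marker set led the others clearly; 4782 (76.1%) and 4399 (75.9%) cells got a gate, and 13 gates with at least 20 cells in each library were compared. The gates were not free of other cell types' markers. A stricter gate left out cells with at least 2 markers of a type detected in each of more than 1 other lineage. Cells with markers of only 1 other lineage stayed in. It left out 205 and 186 of the classical monocyte-gated cells and 455 of 781 and 400 of 763 C1q macrophage-gated cells. Of T cell-gated cells it left out 616 of 1333 and 299 of 742, and of cDC1-gated cells 154 of 285 and 95 of 197. Vcan, 1 of the markers that set the classical monocyte gate, stood at 1244 and 1202 CPM (the gene's UMIs as a share of all UMIs of the gate, scaled to counts per 1000000) in classical monocyte-gated cells and at 81.0 and 70.4 CPM in all other cells. 36 barcodes occurred in both libraries; without them the median ratios given below became 0.70, 0.56 and -0.13, against 0.71, 0.56 and -0.13 with them.

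Some features of the libraries moved together with genotype. Acod1, the targeted gene, was read at 87.8 CPM over all kept cells of the Irg1+/+ library and at 108 CPM in the library labelled Irg1-/-, so the transcript was still read. By gate, Acod1 was lower in neutrophil-gated cells, at 2843 and 1831 CPM (45 and 141 cells), in eosinophil-gated cells, at 950 and 561 CPM, and in classical monocyte-gated cells, at 143 and 120 CPM, and higher in C1q macrophage-gated cells, at 75.7 and 138 CPM. The counts are per gene and do not say which exons were read, so they cannot check the genotype, and every direction below rests on the label. Melanoma transcripts (Mlana, Pmel, Dct, Tyrp1), which CD45+ cells should lack, summed to 774 CPM over the kept cells of the Irg1+/+ library and to 161 CPM in the library labelled Irg1-/-, with each of the 4 lower; Dct was the most abundant at 382 and 80.3 CPM. The kept cells included 66 and 11 cells gated as melanocytes, whose transcripts are part of that sum. In classical monocyte-gated cells the sum was 144 and 39.5 CPM. The 12 genes of a dissociation stress list summed to 7118 and 8961 CPM, with Zfp36 the most abundant at 1492 and 1729 CPM and none at 0. That list summed to 8020 and 10108 CPM in classical monocyte-gated cells and to 9252 and 11256 CPM in C1q macrophage-gated cells. Xist stood at 293 and 298 CPM in the 2 libraries. The part of these differences in the results was not tested.

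Over all kept cells the 9 members together made up 1129 CPM in the Irg1+/+ library (95% interval 1119 to 1139) and 1695 CPM in the library labelled Irg1-/- (1681 to 1708). Ifi27l2a gave 32.6% and 39.0% of these UMIs. Values over all kept cells also depend on the mix of cell types, which differed between the libraries. T cell-gated cells made up 21.2% and 12.8% of kept cells, NK cell-gated cells 4.73% and 10.4%, and Vegfa macrophage-gated cells 7.26% and 4.38%. The part of this mix was not tested. The members did not shift as a block. Ratios below are log2 of the CPM of the library labelled Irg1-/- over the CPM of the Irg1+/+ library, with 0.5 UMI added to each count; over all kept cells they ran from -0.11 for Rsad2 to 1.47 for Ifi44, and 3 of the 9 members were higher by at least 1.5-fold and 0 lower, against a background of 5.58% and 9.82% of the 14204 genes with at least 20 UMIs.

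Isg15, Ifi27l2a and Ifi44 were higher in the library labelled Irg1-/- over nearly all gates. Counting gates with at least 20 UMIs of the gene, Ifi27l2a was higher in 13 of 13 and Isg15 in 12 of 12, a pattern held by 1.36% of the 5516 genes that had 20 UMIs in at least 9 gates. Ifi27l2a was higher by at least 1.5-fold in 9 gates, Ifi44 in 8 and Isg15 in 7, which 0.199%, 0.381% and 0.653% of those genes reached. Ifi44 was higher in each of its 9 gates with enough UMIs except the NK cell gate. The plot of ratios by gate shows these 3 columns almost wholly on the positive side, whereas Rsad2 was lower in 10 of its 12 gates with enough UMIs.

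**Figure D1:**
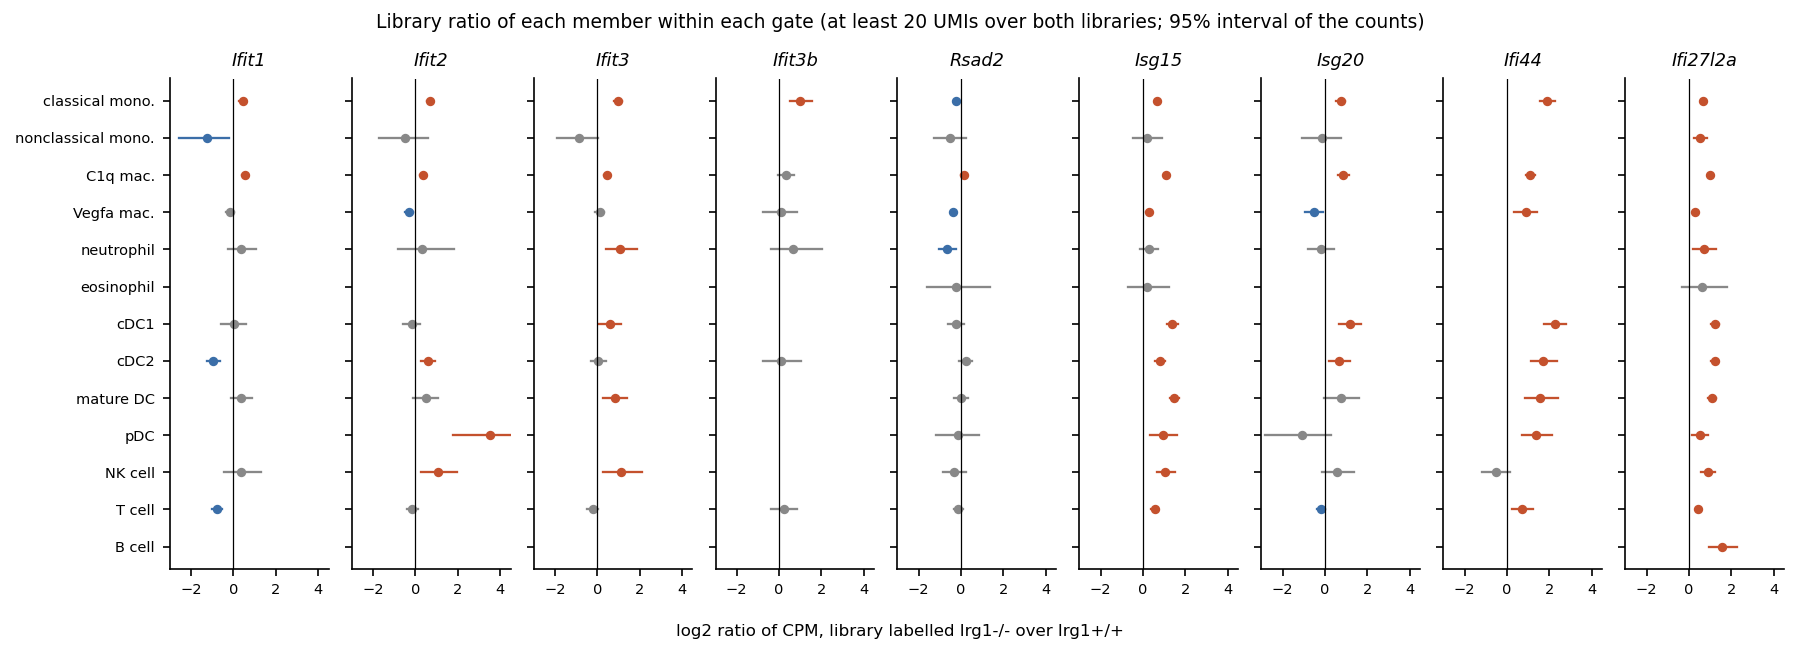
Log2 ratio of CPM (library labelled Irg1-/- over Irg1+/+, x axis) of each member in each gate (rows), for values resting on at least 20 UMIs, with 95% intervals of the counts cut at -3 and 4.5; red points have an interval above 0, blue below 0 and grey across 0. Ifi27l2a lies above 0 in all 13 gates, whereas Rsad2 has its interval above 0 in 1 gate and below 0 in 3.

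Isg15, the secreted and conjugated ubiquitin-like protein, was read at 374 CPM in classical monocyte-gated cells of the Irg1+/+ library and at 587 CPM in the library labelled Irg1-/- (log2 ratio 0.65, interval 0.56 to 0.74). In C1q macrophage-gated cells, macrophages marked by complement genes, it stood at 155.5 and 325 CPM (1.06, 0.97 to 1.16). This ratio was 0.39 under the stricter gate, short of 1.5-fold, and rose with the depth of the cells, from 0.15 (-0.12 to 0.43) under 6000 UMIs to 1.25 (1.13 to 1.38) at 12000 or more. The highest ratio was in mature dendritic cell-gated cells, at 118 and 329 CPM (1.48, 1.27 to 1.69). Conventional type 1 dendritic cells (cDC1) followed with 70.7 and 184 CPM (1.38, 1.12 to 1.63), and their intervals overlap. The values were closest in Vegfa macrophage-gated cells, with 352 and 429 CPM (0.29, 0.14 to 0.43), among gates with an interval above 0. Neutrophil-gated cells had the highest level in both libraries, 719 and 876 CPM, with an interval of the ratio across 0 (-0.12 to 0.71).

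Ifi27l2a was highest in classical monocyte-gated cells, at 703 and 1133 CPM (0.69, 0.62 to 0.76), and lowest in NK cell-gated cells, at 105 and 195 CPM (0.88, 0.56 to 1.23). Between these ends, C1q macrophage-gated cells had 343 and 691 CPM (1.01, 0.95 to 1.08). Type 2 conventional dendritic cells (cDC2) had 337 and 780 CPM (1.21, 1.05 to 1.38). The order of the gates was therefore alike at its ends while its middle moved: the cDC2 gate was level with the T cell gate in the Irg1+/+ library, 337 against 334 CPM, and stood above it in the library labelled Irg1-/-, 780 against 444 CPM. B cell-gated cells had only 26 and 99 UMIs, or 178 and 538 CPM (1.57, 0.96 to 2.27).

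Ifi44 was read most often in plasmacytoid dendritic cells (pDC), cells known for making type I interferon, at 83.1 and 220 CPM (1.39, 0.71 to 2.14). Its ratio was 1.89 in classical monocyte-gated cells (19.9 and 74.2 CPM, interval 1.54 to 2.27). It was 2.25 in cDC1-gated cells (15.5 and 74.3 CPM, 1.76 to 2.78) and 1.71 in cDC2-gated cells (25.7 and 85.5 CPM, 1.15 to 2.36). The NK cell gate was the exception, with 37.5 CPM in the Irg1+/+ library against 26.4 CPM (-0.52, -1.17 to 0.16). Some small gates had almost no UMI in the Irg1+/+ library: nonclassical monocyte-gated cells had 1 and 15 UMIs and B cell-gated cells 0 and 8, so no fold is given for them.

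Rsad2 went its own way. It was highest in the Vegfa macrophage and neutrophil gates and lower there in the library labelled Irg1-/-: 793 and 610 CPM in Vegfa macrophage-gated cells (-0.38, -0.49 to -0.27), and 859 and 552 CPM in neutrophil-gated cells (-0.64, -1.05 to -0.22). In classical monocyte-gated cells it stood at 457 and 389 CPM (-0.23, -0.33 to -0.14), a direction that depended on the depth of the cells. Rsad2 was higher in the monocytes under 6000 UMIs (0.27, 0.12 to 0.42; 503 and 533 cells), lower in those from 6000 to under 12000 (-0.71, -0.84 to -0.58; 224 and 300 cells), and higher in the 11 and 21 deepest cells (1.91, 1.16 to 2.84). The sole interval above 0 was in C1q macrophage-gated cells, at 167 and 182 CPM (0.13, 0.02 to 0.23). The stricter gate turned the classical monocyte value to 0.36 and the C1q macrophage value to -1.39. The latter was also below 0 with cells thinned (-0.30), without the top 5% of cells by UMIs (-0.23) and as a mean of each cell's CPM (-0.12). In Vegfa macrophage-gated cells, leaving out the single cell with the most Rsad2 UMIs in each library moved the value to -0.92. In that gate 1 cell of the library labelled Irg1-/- held 36.1% of the Rsad2 UMIs.

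The Ifit genes fell between these patterns. In classical monocyte-gated cells all 4 were higher in the library labelled Irg1-/-: Ifit1 at 128 and 176 CPM (0.46), Ifit2 at 161 and 263 CPM (0.71), Ifit3 at 96.0 and 189 CPM (0.97) and Ifit3b at 12.2 and 24.5 CPM (1.00). The Ifit1 ratio depended on depth: it was 0.86 (0.60 to 1.12) in monocytes under 6000 UMIs and -0.02 (-0.25 to 0.21) from 6000 to under 12000. Ifit2 was at 0.30 and Ifit3 at 0.45 in the latter class. In C1q macrophage-gated cells they were also higher, from 0.32 for Ifit3b, whose interval crosses 0 (-0.07 to 0.71), to 0.56 for Ifit1 (61.9 and 91.1 CPM). That direction did not hold under the stricter gate, where the values were -0.37 for Ifit1, -0.49 for Ifit2, -0.44 for Ifit3 and -1.54 for Ifit3b. All 4 were also below 0 in cells under 12000 UMIs. Ifit1 was lower in T cell-gated cells, at 63.4 and 36.8 CPM (-0.78, -1.02 to -0.55), and in cDC2-gated cells, at 163 and 84.9 CPM (-0.94, -1.26 to -0.62). In the cDC2 gate 1 cell of the Irg1+/+ library held 41.3% of the Ifit1 UMIs, and the ratio without the top cell of each library was -0.43. Ifit2 was lower in Vegfa macrophage-gated cells, at 258 and 213 CPM (-0.27, -0.47 to -0.08). Ifit3 was highest in neutrophil-gated cells, at 220 and 472 CPM (1.07, 0.40 to 1.88).

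Isg20 was likewise highest in neutrophil-gated cells, at 383 and 335 CPM (-0.21, -0.78 to 0.43). It was higher in the library labelled Irg1-/- in classical monocyte-gated cells, at 71.4 and 120 CPM (0.74, 0.53 to 0.96), and in cDC1-gated cells, at 19.3 and 43.4 CPM (1.16, 0.66 to 1.69). In Vegfa macrophage-gated cells it was lower, at 64.0 and 44.8 CPM (-0.51, -0.95 to -0.10). Among members, Isg20 was the one whose level in the T cell gate of the Irg1+/+ library, 77.0 CPM, was at that of the classical monocyte gate, 71.4 CPM.

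**Figure D2:**
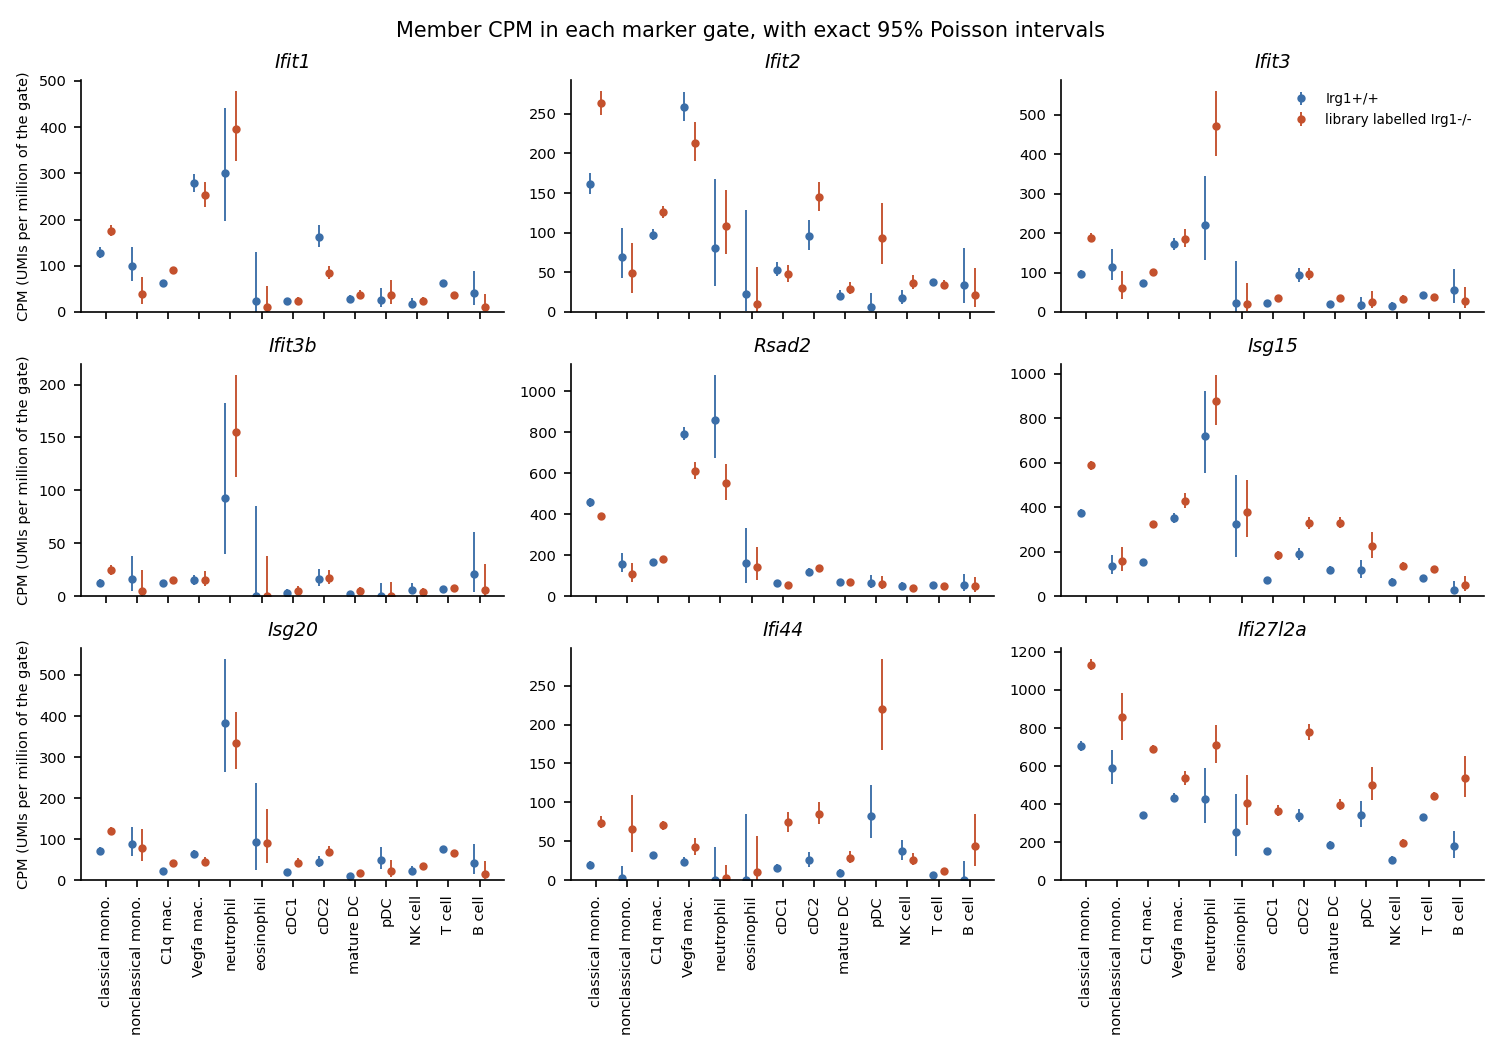
CPM (y axis) of each member in 13 gates (x axis) in the Irg1+/+ library (blue) and the library labelled Irg1-/- (red), with exact 95% Poisson intervals. Ifi27l2a peaks in classical monocyte-gated cells (703 and 1133 CPM), Ifi44 in pDC-gated cells (83.1 and 220 CPM), and Rsad2 in Vegfa macrophage and neutrophil-gated cells.

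Levels differed between cell types within each library. Against T cell-gated cells of the same library, 8 of the 9 members were at least 1.5-fold higher in classical monocyte-gated cells of the Irg1+/+ library, where 18.6% of genes were, and 9 of 9 in the library labelled Irg1-/-, where 20.6% of genes were. In Vegfa macrophage-gated cells 7 members were higher in each library, against 19.2% and 21.2% of genes. NK cell-gated cells stood at the other end: their members summed to 336 and 528 CPM. The make-up of the sum differed too. Rsad2 gave 33.2% and 26.2% of member UMIs in Vegfa macrophage-gated cells and 7.93% and 6.33% in T cell-gated cells, where Ifi27l2a gave 47.1% and 54.6%.

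Across the 26 points of 13 gates in 2 libraries, Ifit1 and Ifit3 had the highest correlation of any pair of members named here (Pearson r 0.94), followed by Ifit3 with its near-copy Ifit3b (0.87) and Ifit1 with Rsad2 (0.83). Ifi44 followed none of the others, with r from -0.43 to 0.31. Among 8707 other genes, those with the pattern closest to the mean of the members were Cd14 (0.91), Slfn1 (0.91), Mefv (0.90), Clec4n (0.90) and Ifi204 (0.89). Gates of 1 library share its depth and its free RNA, so these values are descriptions.

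Classical monocyte-gated cells, recently recruited blood monocytes, had 7 members past the fold. There were 738 such cells in the Irg1+/+ library and 854 in the library labelled Irg1-/-, and the members summed to 2023 CPM (1978 to 2068) and 2956 CPM (2906 to 3005). Of the 9 members, 7 were higher by at least 1.5-fold and 0 lower, where the background was 5.16% of 10021 genes higher and 6.85% lower. Their median log2 ratio was 0.71, beside -0.03 for all genes. Over 15 ways of filtering, gating and scaling the cells that median stayed between 0.69 and 0.80. By depth of the cells it was 0.86 under 6000 UMIs, 0.54 from 6000 to under 12000, and 1.23 in the 11 and 21 cells above.

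Nonclassical monocyte-gated cells, the patrolling blood monocytes, were few, 77 and 59, and had sums of 1276 and 1424 CPM (log2 ratio 0.16, -0.06 to 0.38). Of the 7 members with at least 20 UMIs, 0 were higher by at least 1.5-fold (background 9.47%) and 2 lower (12%). These were Ifit1, from 30 and 9 UMIs (-1.26, -2.57 to -0.20), and Ifit3, from 35 and 14 UMIs (-0.86, -1.90 to 0.04). The Ifit1 ratio turned to just above 0 under the stricter gate and to 0.42 with cells thinned, and was -0.62 without the top cells, 1 of which held 56.7% of the Ifit1 UMIs of the Irg1+/+ library. Ifi27l2a was higher here too, at 590 and 855 CPM (0.53, 0.24 to 0.84).

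C1q macrophage-gated cells, 781 and 763 in number, had member sums of 965 and 1643 CPM and a median ratio of 0.56, with 4 members higher by at least 1.5-fold (background 5.28%) and 0 lower (6.8%). That median depended on which cells were counted. In cells of 12000 UMIs or more, 312 and 262 in number, all 9 members were higher, with a median of 0.93. In cells under 6000 UMIs the median was -0.11 and in those between it was -0.10, each with 4 of 9 members above 0. Rsad2 moved with depth, from -1.01 in the shallow class and -0.94 in the middle class to 0.85 in the deep class, while Ifi27l2a stayed at 1.03, 0.90 and 0.95. The stricter gate, which left out 455 and 400 of these cells, gave a median of -0.37, with 2 members higher by at least 1.5-fold and 2 lower. The share of all genes is not given for the stricter gate or the depth classes, so these counts have no background beside them.

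**Figure D3:**
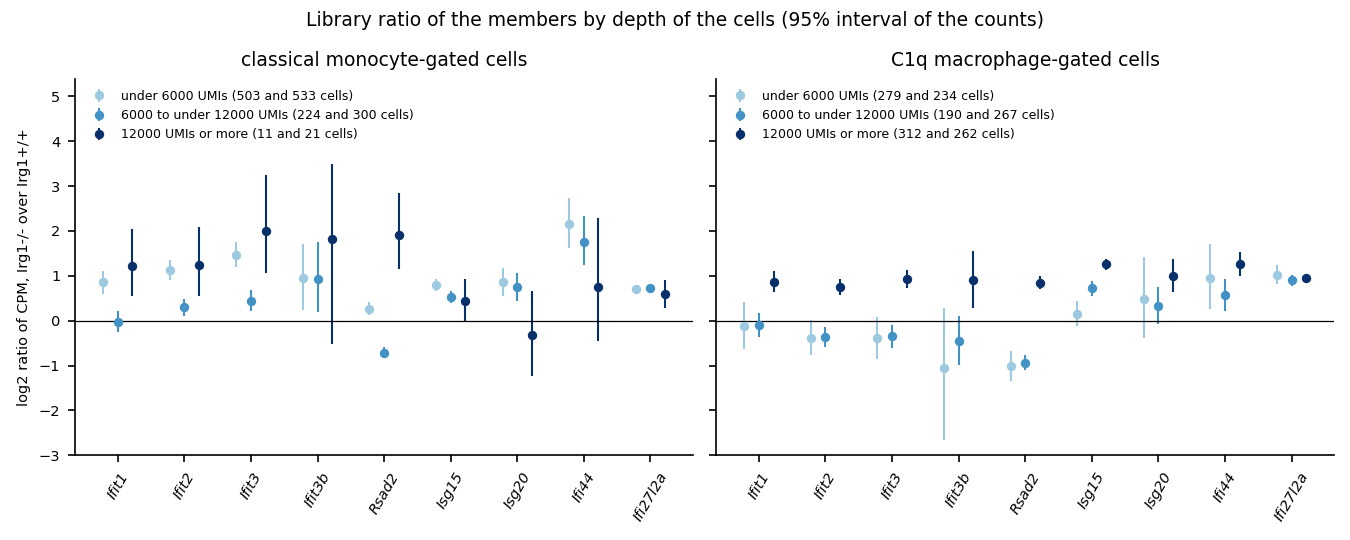
Log2 ratio of CPM (y axis, library labelled Irg1-/- over Irg1+/+) of each member (x axis) in 3 classes of cell depth, for classical monocyte-gated (left) and C1q macrophage-gated cells (right), with 95% intervals of the counts cut at -3 and 3.5. Ifi27l2a gives 1.03, 0.90 and 0.95 in the 3 classes of C1q macrophage-gated cells, whereas Rsad2 runs from -1.01 to 0.85; the deepest monocyte class holds only 11 and 21 cells.

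Vegfa macrophage-gated cells, marked by hypoxia-linked genes, had sums with overlapping intervals: 2389 CPM (2334 to 2445) in 456 cells and 2331 CPM (2251 to 2412) in 254 cells. Their median member ratio was 0.09, with 1 member, Ifi44, higher by at least 1.5-fold (background 7.3%) and 0 lower (8.75%). Without the top cell of each library for a gene, 3 were lower: Ifit1 (-0.64), Rsad2 (-0.92) and Isg20 (-0.83). The share of all genes without their top cells is not given. Isg15, Ifi44 and Ifi27l2a had intervals above 0, while Rsad2, Ifit2 and Isg20 had intervals below 0. Neutrophil-gated cells, 45 and 141 in number, had the highest sums, 3087 and 3609 CPM, with 3 members, Ifit3, Ifit3b and Ifi27l2a, higher (16.4% of genes) and Rsad2 lower (19.5%). The dissociation stress list went from 14517 to 24706 CPM in this gate, with 7 of its 12 genes higher by at least 1.5-fold and 2 lower, and Dusp1 the most abundant at 3226 and 5873 CPM; its part in the result was not tested. Without the top cells the Rsad2 ratio was -0.51, short of 1.5-fold, and the Ifit1 ratio 1.36, against 0.37 with them. TMM scaling raised each log2 ratio of this gate by 0.26, which put Ifit1 and Ifit2 past 1.5-fold and left Rsad2 short of it.

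All 4 dendritic cell gates had higher sums in the library labelled Irg1-/-. The cDC1 gate went from 427 to 831 CPM, with 5 members higher by at least 1.5-fold (background 6.47%) and 0 lower (7.43%). Without the top cell of each library for a gene it was 4, as Ifit3 went from 0.61 to 0.50. Mature dendritic cell-gated cells went from 467 to 949 CPM, with 5 of the 8 members of at least 20 UMIs higher (6.13%) and 0 lower (8.01%). In the cDC2 gate, 1080 and 1742 CPM, 5 were higher (6.83%) and 1, Ifit1, was lower (9.35%). The pDC gate, with 53 and 47 cells, stood at 711 and 1185 CPM, with 3 of 6 such members higher (9.84%) and 1, Isg20, lower (11.9%). Its Ifit2 ratio of 3.51 came from 2 and 25 UMIs, of which 1 cell held 50% and 40%.

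The lymphocyte gates were those of T cells, NK cells and B cells. Macrophage transcripts were read in these gates too: Lyz2, a myeloid gene that lymphocytes should lack, stood at 1313 and 1386 CPM in T cell-gated and 1150 and 1226 CPM in NK cell-gated cells, beside 15535 and 14970 CPM in classical monocyte-gated cells. The list of 5 such macrophage genes summed to 2083 and 2170 CPM in T cell-gated and 1898 and 1994 CPM in NK cell-gated cells, with none at 0, and the part of free RNA in the lymphocyte values was not tested. T cell-gated cells, 1333 and 742 in number, had sums of 708 and 813 CPM and a median ratio of -0.13, with Ifi44 higher by at least 1.5-fold (background 3.35%) and Ifit1 lower (6.44%). Isg15 was higher, at 83.1 and 121 CPM (0.54, 0.39 to 0.70), as were Ifi27l2a, at 334 and 444 CPM (0.41, 0.34 to 0.49), and Ifi44, at 7.45 and 12.4 CPM (0.73, 0.22 to 1.24). Ifit1 was lower under all 15 settings and short of 1.5-fold under 2 of them: its ratio was -0.50 with the majority gate of each Leiden cluster and -0.53 with no lead required between marker scores, which left 0 members lower by that fold. The Isg20 ratio of -0.20 turned to 0.21 under the stricter gate, 0.025 without the top 5% of cells by UMIs and 0.043 with cells thinned. The sign of the T cell median changed with the gate and with other settings: it was 0.21 under the stricter gate, 0.025 without the top 5% of cells by UMIs, 0.042 as the mean of each cell's CPM and 0.043 with cells thinned. NK cell-gated cells, 297 and 604 in number, had 4 members higher (6.61%) and 0 lower (8.34%).

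The members were also read in 3 subsets of T cells. CD8 T cell-gated cells had lower Ifit1, at 59.1 and 29.7 CPM (-0.99, -1.37 to -0.63), and lower Ifit3, at 53.3 and 32.1 CPM (-0.72, -1.10 to -0.37). In the same gate Isg15 was higher, at 71.8 and 101 CPM (0.50, 0.26 to 0.74), as was Ifi27l2a, at 223 and 291 CPM (0.38, 0.25 to 0.52). In conventional CD4 T cell-gated cells Ifit3 was at 35.7 and 87.6 CPM (1.28, 0.37 to 2.25), from 18 and 26 UMIs. Ifit1 stood at 85.2 and 90.9 CPM in that gate (0.10, -0.66 to 0.82). Regulatory T cell-gated cells had Ifit1 at 137 and 56.9 CPM (-1.25, -1.90 to -0.67) and Ifit3 at 53.2 and 56.9 CPM (0.11, -0.61 to 0.78). They had the highest Ifi27l2a level of the 3 subsets, 709 and 1038 CPM. Members of at least 20 UMIs higher and lower by at least 1.5-fold numbered 1 and 3 in the CD8 gate (background 3.88% and 7.15%), 2 and 0 in the conventional CD4 gate (8.66% and 13.6%) and 1 and 1 in the regulatory gate (8.05% and 11%). The difference of these ratios between subsets was not tested.

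Per cell, the difference in classical monocyte-gated cells lay both in the share of cells with a transcript and in the number of members a cell carried. With each cell thinned to 2000 UMIs, Isg15 was read in 37.9% of cells of the Irg1+/+ library and 54.2% of cells of the library labelled Irg1-/- (57.0% and 72.4% without thinning). Ifi27l2a was read in 66.2% and 85.2% (84.7% and 93.3% without thinning) and Ifi44 in 2.23% and 10.4% (6.10% and 19.9%). For Rsad2 the shares were 23.1% and 25.9% (33.5% and 39.1%), a difference smaller than for the other members just named. No cell type here should lack these genes, so the NK cell gate, low for most members, serves as the nearest background: Isg15 was read in 12.7% and 18.1% of its thinned cells, Ifi27l2a in 18.2% and 26.1% and Rsad2 in 7.20% and 6.91%. Ifi44 was no lower there than in monocytes of the Irg1+/+ library, with 5.08% and 3.67%. The NK cell gate had rank 2 among the gates for Ifi44 in that library, at 37.5 CPM. It therefore gives no background for this gene, and the 2.23% above was not set against one. Median depth before thinning was 5060.5 and 5185.5 UMIs in monocytes and 2747 and 2631.5 in NK cells, and 66 and 85 monocytes were too shallow to thin.

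In the same thinned monocytes, cells with none of the 9 members made up 13.7% (11.2 to 16.5) and 4.81% (3.41 to 6.57). Cells with 4 or more members made up 11.0% (8.75 to 13.6) and 23.4% (20.5 to 26.6). The tenth of cells with the most member UMIs held 47.1% and 35.3% of the total. In C1q macrophage-gated cells the share without any member was 31.9% and 12.5%, and in T cell-gated cells 35.4% and 22.6%. In Vegfa macrophage-gated cells 4 or more members were read in 16.9% (13.2 to 21.2) and 9.18% (5.62 to 14.0), with overlapping intervals. The share of that gate without any member was 23.7% and 20.8%.

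**Figure D4:**
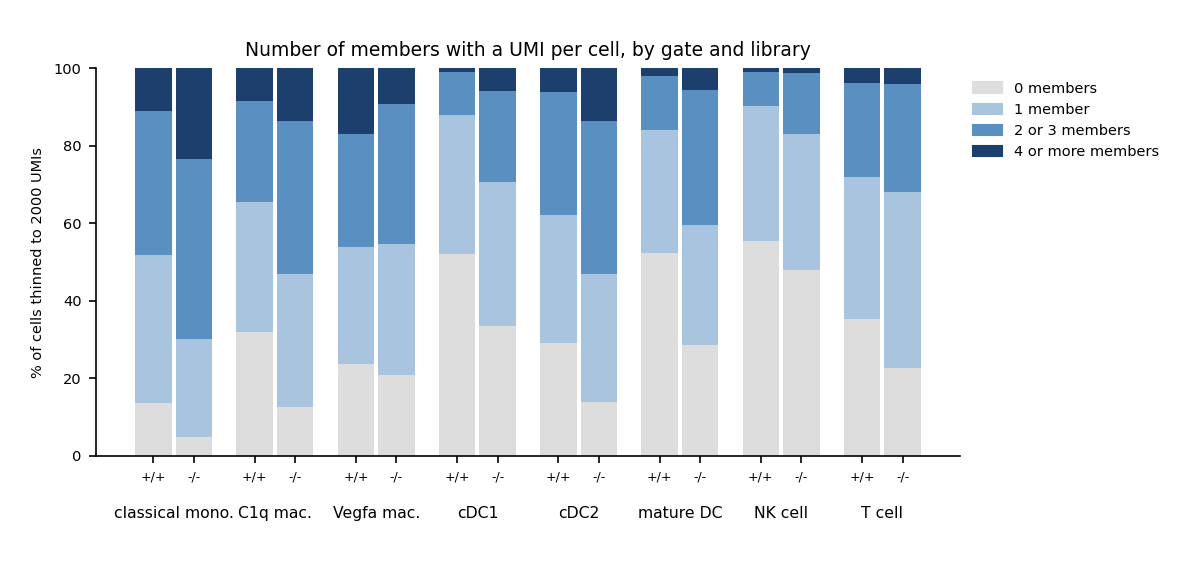
Percent of cells thinned to 2000 UMIs (y axis) with a UMI of 0, 1, 2 or 3, or at least 4 members, in the Irg1+/+ library (+/+) and the library labelled Irg1-/- (-/-), for the 8 gates with at least 100 such cells in each library. Among classical monocyte-gated cells the share with 4 or more members is 11.0% and 23.4%, while in Vegfa macrophage-gated cells it is 16.9% and 9.18%.

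Concentration in single cells set the members apart from each other. In classical monocyte-gated cells the cell with the most UMIs of a gene held 1.87% and 1.31% of the Isg15 UMIs and 0.66% and 0.70% of those of Ifi27l2a. For Rsad2 it held 11.0% and 6.95%. Ifit1 was more uneven in small gates, with 1 cell holding 57.7% of its UMIs in neutrophil-gated cells of the Irg1+/+ library and 56.7% in nonclassical monocyte-gated cells.

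The rest of the pathway was read from lists of its other parts. In classical monocyte-gated cells the receptor genes were at like levels in both libraries, Ifnar1 at 121 and 125 CPM and Ifnar2 at 62.9 and 68.2 CPM. So were the kinases, Jak1 at 334 and 327 CPM and Tyk2 at 37.5 and 43.3 CPM. Irf9 stood at 175 and 205 CPM (0.22, 0.08 to 0.37). Stat2, at 183 and 292 CPM (0.68, 0.54 to 0.81), and Irf7, a factor that amplifies interferon production, at 225 and 402 CPM (0.83, 0.72 to 0.95), were higher by at least 1.5-fold. Irf3 stood at 25.6 and 27.2 CPM.

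Of 6 inhibitors of the pathway, 1 was higher by at least 1.5-fold and 0 lower, against 5.16% and 6.85% of all genes. The 1 was Socs1, which blocks Jak kinases, at 57.4 and 115 CPM (1.00, 0.77 to 1.23). Usp18, which removes Isg15 from proteins and blocks Ifnar2, stood at 48.4 and 70.6 CPM (0.54, 0.28 to 0.81). Socs3 was at 205 and 236 CPM, and the phosphatase Ptpn6 at 370 and 412 CPM. Ptpn2 was lower, at 110 and 91.0 CPM (-0.27), and Pias1 stood at 66.2 and 65.4 CPM. The ligands were almost unread: Ifnb1 had 10 and 9 UMIs in these cells and 152 and 39 UMIs over all kept cells, and 15 of the 18 ligand genes had none in the library labelled Irg1-/-. Among paralogs, Ifit1bl1 was at 37.5 and 62.9 CPM (0.74), whereas Ifi27 was at 31.3 and 22.5 CPM (-0.47). Ifit1bl2 had 2 and 2 UMIs, Ifi27l2b 1 and 0, and Ifi44l none.

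Other targets of type I interferon moved with the members in the same gate. Of 49 measured, 17 were higher by at least 1.5-fold in classical monocyte-gated cells and 0 lower (5.16% and 6.85% of all genes), with a median ratio of 0.43. The highest were Slfn4 at 444 and 850 CPM (0.94), Oas1g at 22.3 and 40.3 CPM (0.85), Ube2l6, the conjugating enzyme for Isg15, at 114 and 202 CPM (0.83), and Phf11d at 92.4 and 163 CPM (0.81). The lowest were Cmpk2, the neighbor of Rsad2, at 118 and 128 CPM (0.12) and Trim21 at 17.1 and 18.4 CPM (0.11). In C1q macrophage-gated cells 21 were higher and 0 lower (all genes 5.28% and 6.8%), with a median of 0.56. This list is not given by depth or under the stricter gate, where the member median of the C1q macrophage gate became -0.37. In Vegfa macrophage-gated cells 0 were higher and 2 lower (7.3% and 8.75%, median -0.05), and in T cell-gated cells 5 and 0 (3.35% and 6.44%, median 0.10).

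Targets of type II interferon, the product of T and NK cells, gave 8 of 26 higher by at least 1.5-fold and 0 lower in classical monocyte-gated cells, against 5.16% and 6.85% of all genes, with a median of 0.32. The GTPases Tgtp1, at 13.7 and 51.1 CPM (1.89), and Iigp1, at 105 and 287 CPM (1.46), led this list, followed by Gbp2b at 8.28 and 18.0 CPM (1.11) and Gbp6 at 12.4 and 20.6 CPM (0.72). Cd274, which encodes PD-L1, stood at 229 and 224 CPM (-0.03), and Nos2 was lower, at 24.3 and 16.9 CPM (-0.52). In Vegfa macrophage-gated cells the median was 0.36 for type II targets beside 0.09 for the members, and in T cell-gated cells 0.12 beside -0.13. The order was the reverse in cDC1-gated cells, 0.18 beside 0.61, and in mature dendritic cell-gated cells, 0.31 beside 0.84. The member medians take all 9 members whatever their UMIs, and the list medians only genes with at least 20 UMIs. The difference between the lists was not tested. The plot of medians sets the lists side by side for the 9 gates with enough members.

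**Figure D5:**
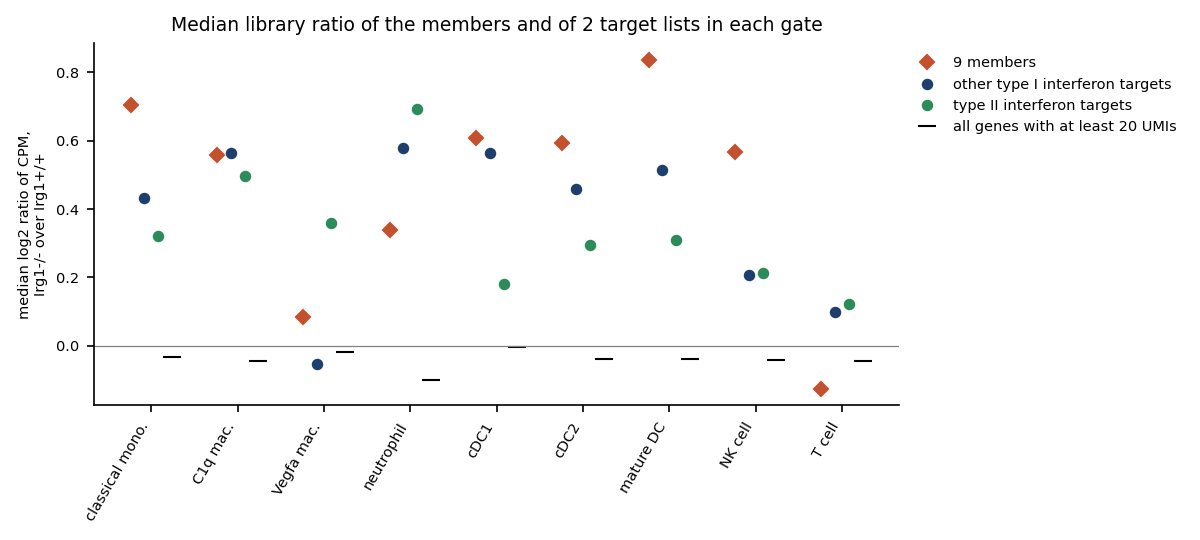
Median log2 ratio of CPM (y axis, library labelled Irg1-/- over Irg1+/+) of the 9 members (diamonds), of other type I targets (dark blue) and of type II targets (green) in each gate (x axis), with the median of all genes of at least 20 UMIs as bars. The member medians take all 9 members whatever their UMIs, and the list medians only genes with at least 20 UMIs. In classical monocyte-gated cells the 3 medians are 0.71, 0.43 and 0.32 beside -0.03 for all genes, and in T cell-gated cells the member median is -0.13.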

How the data were processed

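The authors deposited 1 matrix of UMI counts per library, whole numbers per gene and cell, with no normalization. Per the study's methods and the submitters' processing notes, reads were base-called with CASAVA 1.8, trimmed with fastp, aligned to GRCm38 with STAR and counted with UMI-tools; Seurat was used downstream. The deposited counts were read in Python 3.11.15; scipy 1.17.1 gave the intervals and numpy 2.4.6 with pandas 2.3.3 the sums. Cells with over 200 genes and mitochondrial UMIs under 10% were kept, and 13 mitochondrial genes were left out of totals. Each cell took the gate with the highest mean marker score if at least 2 markers were detected and the lead was at least 0.1; this rule was set after the files were seen. Of the cells without a gate, 1235 and 1163 had too small a lead and 267 and 232 too few markers. Doublets were not called and were kept; a stricter gate and removal of the top 5% of cells by UMIs were alternatives. UMIs were summed per gate and library and divided by the gate's total (CPM), with exact Poisson intervals for levels, exact conditional binomial intervals for ratios and Clopper-Pearson intervals for shares, at the 95% level. Folds of 1.5 were counted among genes with at least 20 UMIs. Background shares refer to all cells of a gate, not to depth classes, alternative settings or counts without top cells. Steps across genes were tested on simulated data. Alternatives changed the cell filter, the gate, the scaling (TMM of edgeR 4.0.16 in R 4.3.3), the summary, the depth (thinning to 2000 UMIs, scanpy 1.11.5 for Leiden clusters) and the pseudocount. The members and lists were chosen with earlier results of these data known. Named genes were all members, all paralogs, signaling genes and inhibitors, the 4 highest and 2 lowest ratios of each target list among genes with at least 100 UMIs, and the 5 genes most like the members; 1 listed gene is not reported here.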

Additional observations from a re-analysis of the deposited data

Results flagged for a closer look

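For 4 members the intervals of the ratio lay above 0 in one gate and below 0 in another, and the difference between the gates was not tested. Ifit1 had a log2 ratio of 0.56 in C1q macrophage-gated cells and -1.26 in nonclassical monocyte-gated cells, the latter from 30 and 9 UMIs. Ifit2 had 3.51 in pDC-gated cells and -0.27 in Vegfa macrophage-gated cells. Rsad2 had 0.13 in C1q macrophage-gated cells and -0.64 in neutrophil-gated cells. Under the stricter gate the C1q macrophage values turned to -0.37 for Ifit1 and -1.39 for Rsad2. Isg20 had 1.16 in cDC1-gated cells and -0.51 in Vegfa macrophage-gated cells.

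Cells outside the comparisons also carried the members. In the 124 and 102 cells left out for mitochondrial UMIs, their sum was 814 CPM for Irg1+/+ (684 to 961) against 1328 CPM in the other library (1134 to 1545). In the 1502 and 1395 cells without a gate, they summed to 1527 and 2199 CPM.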

How the results depend on the processing

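The member median in classical monocyte-gated cells lay between 0.69 and 0.80 under all 15 settings. In C1q macrophage-gated cells it was 0.56 as reported, -0.37 under the stricter gate, 0.28 without the top 5% of cells by UMIs, 0.28 as the mean of each cell's CPM and 0.27 with cells thinned. In T cell-gated cells it was -0.13 as reported, 0.21 under the stricter gate, 0.25 with the majority gate of each Leiden cluster and 0.19 with no lead required between marker scores; it also lay just above 0 without the top 5% of cells by UMIs (0.025), as the mean of each cell's CPM (0.042) and with cells thinned (0.043). The log2 library ratio of Ifit1 in nonclassical monocyte-gated cells, -1.26, became 0.0106 under the stricter gate and 0.42 with cells thinned. The cause of these shifts was not tested. Of 117 member ratios in gates, 94 rested on at least 20 UMIs. The rest have wide intervals that are easily stayed within. Of the 117, 89 stayed within their interval under the stricter gate, and all 117 did under TMM scaling and with a pseudocount of 1 UMI. With cells thinned 72 of 99 did, and with the majority gate of each Leiden cluster 84 of 108. Among ratios whose interval excluded 0, 7 changed sign under the stricter gate and 4 with cells thinned. Ifi27l2a was higher in the library labelled Irg1-/- in every gate that each setting could compare. Isg15 was too, except in Vegfa macrophage-gated cells with thinning (-0.012) and in neutrophil-gated (-0.0046) and eosinophil-gated cells (-0.034) by the mean of each cell's CPM. Leaving out each library's top cell for a gene turned the sign of 6 ratios among those of at least 20 UMIs: Ifit2 in cDC1, Ifit3 and Ifit3b in Vegfa macrophage, and Rsad2 in eosinophil, mature DC and pDC-gated cells. The requirement of no lead, the requirement of 3 markers, the depth classes, and the settings without shared barcodes or top cells were chosen after seeing the data. No paired analysis was possible because there is 1 library per genotype. Values from fewer than 20 UMIs, as in B cell and eosinophil-gated cells, are limited by depth.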
